A study of Xenopus laevis with 9 samples.

Results

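The comparison described here set corneas taken after lens removal (R) against sham operated corneas (S) in *Xenopus laevis*, using 6 of the 9 arrays of the series (R1, R2 and R3 against S1, S3 and S4). Every probeset of the array that is not a manufacturer's control was compared, 15476 of 15611, and 4670 of them had a mean intensity of 16 or more in R or in S. All tadpoles were wildtype and were operated at stage 50. In R the outer cornea was lifted as a flap, the inner cornea was broken and the lens was taken out, whereas in S the same flap was raised and laid back with the lens in place. Both groups recovered for 3 days, at 20 degrees overnight and then at 25 degrees, before the corneas were dissected with some surrounding epidermis. Each array held RNA of 1 pool of 7 or 8 corneas by the series' design text, amplified from small amounts, so a value is a mean over several tadpoles and p-values measure the spread between such pools. The remaining 3 arrays held lens (L) and entered the fit only to share its estimate of spread. By the study's account, the lenses came from the tadpoles that later gave the R corneas, and the sham operation was done on other tadpoles. Whether L and R pools of the same number shared animals is not stated, and the fit treated all pools as independent. The number of arrays per group (n = 3) limits the precision throughout.

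In anuran tadpoles the outer cornea can form a new lens once signals from the back of the eye reach it, a process known as cornea to lens transdifferentiation (CLT). A flap that is raised and replaced heals without that exposure. Healing and stretched epithelia switch on immediate early genes, a class that is transcribed within minutes of a signal and includes transcription factors such as egr1 and feedback inhibitors such as dusp1, a phosphatase that turns off mitogen activated kinases. *X. laevis* is an allotetraploid frog, so that many genes exist as a pair of homoeologous copies, written here with the endings .L and .S as in the annotation.

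Some arrays stood apart. Over all probesets, log2 values correlated between 0.974 and 0.988 among the S arrays, between 0.935 and 0.959 among the R arrays and between 0.931 and 0.960 across the groups. Of the 4670 probesets at 16 or more, R3 differed at least 2-fold from the S mean at 292 probesets upward and 419 downward, against 171 and 168 for R1 and 161 and 78 for R2. In R3 the middle segment of the Gapd control transcript read 26.5, against 71.7 to 89.1 on the other cornea arrays, while its 3′ segment read 321 against 347 to 455. S4 lay between S1 and S3 at 48.0% of probesets, whereas S1 lay between the other S arrays at 25.5% and S3 at 26.5%, and the labels do not say whether S4 was an independent pool. The counts of calls over all probesets, at 16 or more and in the first gene list are given without these arrays too. The label of the tissue was checked with 36 genes of cornea and epidermis epithelium, whose summed intensity was 5666 to 5807 in R and 5941 to 6675 in S. Keratins and the adhesion molecule epcam were abundant in both (epcam.S 475, 533 and 556 in R and 469, 561 and 463 in S).

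At an adjusted p under 0.05 (limma, Benjamini-Hochberg over 15476 probesets), 75 probesets were higher in R (0.485% of those tested) and 99 were lower (0.64%). Among the 4670 probesets at 16 or more, 34 were higher (0.728%) and 49 were lower (1.05%). The 99 lower calls made up 56.9% of all calls, but which direction held more calls depended on the fit. The share was 69.4% after quantile normalisation over the 6 cornea arrays, 41.7% with array weights, 46.3% without R1, 43.9% without R3 and 45.6% without S3. Over all probesets, 111 were higher and 87 lower without R3, and 22 were higher and 38 lower without S4. In each of the 174 called probesets, every R value lay on one side of every S value. Over all probesets the R values lay wholly above S in 12.3% and wholly below in 9.82%, and among those at 16 or more in 11.5% and 15.9%. At an unadjusted p under 0.05, 7.83% of all probesets were higher and 6.64% lower, and 8.5% and 9.96% of those at 16 or more. The 49 lower probesets at 16 or more had a median difference of 3.53-fold, and 41 of them differed at least 2-fold. In 42 of the 49 the lens mean was below both cornea means, and in 35 of the 49 the lowest R value was that of R3. The matching shares over all 4670 probesets were not taken. On the lens arrays 2379 to 2598 probesets reached 16, against 4119 to 4574 on the cornea arrays. R3 was at least 2-fold below the S mean at 419 of the 4670, against 168 for R1 and 78 for R2. Without R3, 35 probesets at 16 or more were higher and 41 lower, and without S4, 10 were higher and 17 lower. Without S1 the numbers were 17 and 23, and without S3 they were 31 and 24. In bulk tissue such as this, fewer cells of a type and less RNA per cell cannot be told apart.

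**Figure D1:**
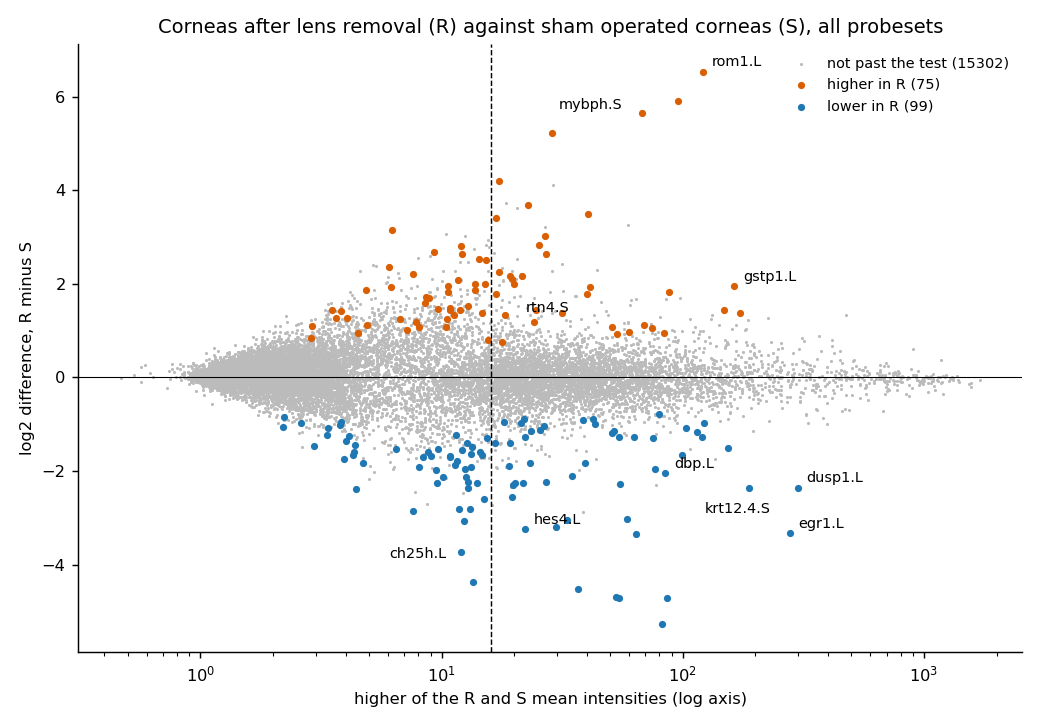
Each point is 1 of 15476 probesets, with the higher of its R and S mean intensities on a log x axis and the fitted log2 difference R minus S on the y axis. Orange points are the 75 probesets higher in R and blue points the 99 lower in R at an adjusted p under 0.05, and the dashed line marks an intensity of 16, above which 49 are lower and 34 higher.

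Several immediate early and stress response genes were lower in corneas after lens removal than after the sham operation, in a list that was chosen with earlier results of these data known. Of 30 such genes measured, each by 1 probeset, 5 fell (egr1.L, dusp1.L, klf2.S, gadd45g.L and ier2.S) and 0 rose in the limma test, beside 0.725% lower and 0.494% higher over the 6482 genes with a symbol. At an unadjusted p under 0.05, 17 of the 30 were lower and 1 was higher, beside 7.79% and 7.65% of all 6482 genes. All R values lay below all S values for 19 of the 30 and above them for 2, beside 11.1% and 11.5% over all 6482 genes. The median log2 difference of the list was -0.70, and -0.84 for its 23 genes at 16 or more, of which the same 5 were called (0.9% lower and 0.587% higher over 2555 genes at that level). On each R array the median over the 30 genes, taken relative to the S mean, was -0.72, -0.56 and -0.83 on R1, R2 and R3, while the S arrays lay at -0.14, 0.23 and -0.04.

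Egr1.L (Xl.637.1.A1_at), a zinc finger transcription factor that is a standard marker of fresh signalling, read 32.3, 27.2 and 22.4 on the R arrays (always in the order R1, R2, R3) and 224, 344 and 264 on the S arrays (S1, S3, S4). The groups were far apart, with means of 27.3 ± 4.95 and 277 ± 61.5 (SD, n = 3), a difference of -3.34 ± 0.31 on the log2 scale (SE, adjusted p = 0.0016). It stood at 1.44 to 3.35 in the lens arrays. Dusp1.L (Xl.1243.1.S1_at) read 65.9, 65.5 and 45.1 in R and 267, 340 and 290 in S, a log2 difference of -2.36 ± 0.32 (adjusted p = 0.0095). Its homoeologue dusp1.S (Xl.2803.1.S1_at) read 6.97, 3.18 and 2.84 in R and 32.6, 35.2 and 31.1 in S, or -3.05 ± 0.34 (adjusted p = 0.0038). Both copies of this phosphatase thus fell, and neither had an R value that reached an S value.

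Klf2, a Krüppel-like transcription factor, was measured by a pair of klf2.S probesets. One (Xl.7863.1.S1_at) read 7.89, 1.80 and 2.42 in R and 25.9, 31.8 and 32.1 in S (log2 difference -3.20, adjusted p = 0.0136), and the other (Xl.25657.1.S1_at) read 12.7, 10.02 and 4.06 in R and 35.8, 29.3 and 39.1 in S (-2.11, adjusted p = 0.0349). R1 was the highest R array at both, and no R value reached an S value. Gadd45g.L (Xl.12125.1.S1_at), a stress sensor that restrains growth, read 72.7, 48.3 and 42.6 in R and 138, 188 and 135 in S (-1.52, adjusted p = 0.0369), whereas gadd45g.S overlapped, at 101, 67.6 and 55.0 in R and 111, 100.3 and 96.4 in S. Ier2.S (Xl.8317.1.A1_at), a nuclear immediate early protein, read 3.94, 8.19 and 7.48 in R and 14.9, 18.5 and 16.4 in S (-1.41, adjusted p = 0.0443). Klf6.L had 1 probeset past the test at a low level (Xl.13501.1.A1_at, 1.92, 2.21 and 1.83 in R and 4.097, 3.39 and 3.98 in S, adjusted p = 0.0267), whereas another klf6.L probeset read 16.5 to 19.8 in R and 27.6 to 31.2 in S without passing it (adjusted p = 0.218). A further klf6.L probeset, also at a low level, gave a log2 difference of -0.02 (adjusted p = 0.987).

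Further members did not pass the test although their groups did not overlap. The AP-1 subunit junb.L read 53.0, 32.2 and 29.7 in R and 91.1, 125 and 106 in S (log2 difference -1.52, adjusted p = 0.0807). Ccn1.S, a secreted matrix protein induced in wounds, read 26.7, 27.3 and 30.6 in R and 80.0, 127 and 111 in S (-1.89, adjusted p = 0.103). Socs3.L, a feedback inhibitor of cytokine receptors, read 17.8, 23.0 and 10.6 in R and 35.98, 46.6 and 34.6 in S (-1.25, adjusted p = 0.0762). On each of these genes all R arrays lay below all S arrays. The prostaglandin synthase ptgs2.S (13.5 to 23.0 in R and 30.6 to 38.7 in S), the kinase sgk1.L (38.0 to 63.9 and 89.4 to 96.1) and the mRNA decay factor zfp36l1.S (14.4 to 22.9 and 25.4 to 44.7) were of the same kind, with adjusted p of 0.105, 0.115 and 0.147.

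The list was not uniform. Jun.L, the partner of junb in AP-1, read 44.9, 43.4 and 45.9 in R and 42.8, 43.6 and 33.7 in S, so that the groups overlapped. The 2 genes with all R values above all S values were ier5l.S (102, 80.9 and 188 in R and 65.9, 72.5 and 65.8 in S, adjusted p = 0.285) and egr2.L, at 2.94 to 3.03 in R and 2.30 to 2.62 in S. Cebpd.S was low in R3 alone, at 11.9 against 65.5 and 69.7 in R1 and R2 and 57.4 to 68.1 in S. Heat shock and protein folding genes did not share the direction. Of 31 measured, 0 were called in either direction by limma (3 higher and 0 lower at an unadjusted p under 0.05). The R values lay wholly above S for 8 and wholly below for 0, beside 11.5% and 11.1% of all genes. Hspa8.L, a constitutive chaperone, read 180, 141 and 140 in R and 81.7, 104 and 93.2 in S (adjusted p = 0.095).

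Without R3, the array with the low middle segment of Gapd, 4 of the 30 immediate early and stress response genes were lower and the median was -0.60. Leaving out S1 gave 2 lower and a median of -0.72, leaving out S3 gave 2 and -0.58, and leaving out S4 gave 1 (egr1.L) and -0.70. With 1 lens array left out the number was 3, and with the replicate number as a block it was 0. Haemoglobin and other red blood cell genes had a summed intensity over 14 genes of 1956, 1376 and 1031 in R and 2892, 1514 and 2251 in S. The immediate early list summed to 1017, 978 and 935 in R and 1733, 2228 and 1884 in S. The R arrays thus ranked the same way in both lists, whereas the S arrays ranked in the opposite order. The globin hbg2.L read 48.6, 39.3 and 24.2 in R and 214, 63.3 and 130 in S (adjusted p = 0.29). The part of blood and of RNA integrity in the lower values was not tested.

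**Figure D2:**
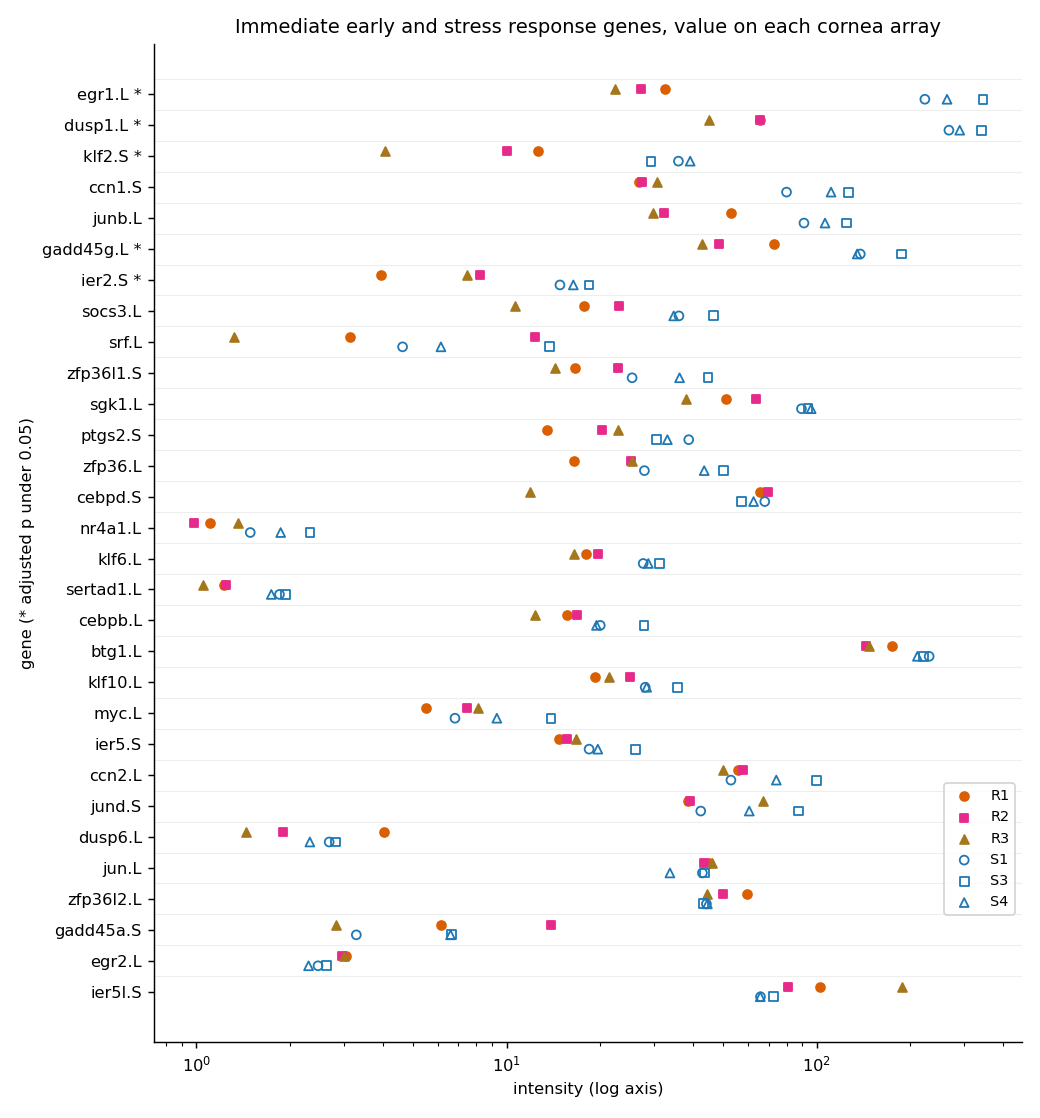
The x axis gives the intensity of 30 immediate early and stress response genes on a log scale, with 1 row per gene ordered by the log2 difference. Filled symbols are R1, R2 and R3, open blue symbols are S1, S3 and S4, and an asterisk marks the 5 genes past the test. The R symbols lie to the left of all S symbols in 19 rows.

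Hes4, a transcriptional repressor of the Hairy and Enhancer of split family that acts downstream of Notch, was lower in R at both copies. The hes4.L probeset (Xl.1764.1.S1_at) read 2.25, 2.78 and 2.05 in R and 21.8, 22.0 and 22.7 in S, which is 9.48-fold higher in S (adjusted p = 0.000435). The 3 S values lay within 1 unit of each other and the R values lay below the median intensity of their arrays. For hes4.S, 5 probesets were present and at each of them the R mean was below the S mean. One (Xl.25977.1.S1_x_at) read 23.6, 25.96 and 18.2 in R and 50.7, 54.9 and 56.9 in S and passed the test (log2 difference -1.28, adjusted p = 0.0095). At the other hes4.S probesets the log2 differences were -0.71, -0.76, -1.93 and -2.34 and did not pass, and probes of the _x_at kind may also detect related transcripts. Across 18 Notch pathway and Hes genes, hes4 was the 1 gene lower in R by its hes4.S probeset and 0 were higher, beside 0.725% and 0.494% of all genes. The median log2 difference of the list was -0.02. The Notch ligand dll1.L read 5.36, 12.1 and 5.33 in R and 18.4, 23.9 and 17.9 in S (-1.51, adjusted p = 0.0611), and the receptor notch1.S read 24.7 to 29.0 in R and 31.0 to 39.9 in S (adjusted p = 0.344).

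Of 12 clock genes, the output regulator dbp.L and the repressor bhlhe40.L were lower in R, and 0 were higher, beside 0.725% and 0.494% of all genes. Dbp.L (Xl.16518.1.S1_at) read 17.8, 17.9 and 26.7 in R and 78.8, 94.6 and 80.0 in S, or 4.12-fold higher in S (adjusted p = 0.0029). Bhlhe40.L (Xl.19778.1.A1_at) read 37.9, 36.8 and 21.4 in R and 89.9, 118 and 89.4 in S, or 3.16-fold higher in S (adjusted p = 0.0267). Neither group of values overlapped, and dbp.L differed from most lower genes in that R3 was its highest R array. Other clock genes did not pass: per1.L read 24.2, 32.7 and 39.7 in R and 9.90, 28.9 and 21.8 in S, clock.L read 11.3, 12.7 and 1.95 in R and 10.4, 15.8 and 11.6 in S, and arntl.L was near 1 everywhere. The median log2 difference over the 12 genes was -0.24, and the time of day of each dissection is not given in the sources used here.

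Other lower genes at 16 or more included some of metabolism and some of the epithelium. Sqor.S (Xl.4620.1.A1_at), the mitochondrial enzyme that oxidises sulfide, read 3.44, 3.72 and 2.83 in R and 19.7, 21.5 and 17.6 in S, or 5.91-fold higher in S (adjusted p = 0.000414), whereas sqor.L read 4.13, 10.5 and 4.62 in R and 8.73, 3.46 and 8.69 in S. Pdha1.S, a subunit of pyruvate dehydrogenase, read 20.8, 26.9 and 21.3 in R and 45.3, 43.04 and 39.4 in S (log2 difference -0.89, adjusted p = 0.0384). Another pdha1 probeset gave -0.40 without passing (adjusted p = 0.387). A gene annotated atf4-iii (Xl.12999.2.A1_at) read 12.498, 10.7 and 10.6 in R and 57.2, 54.3 and 52.7 in S, or 4.86-fold higher in S (adjusted p = 0.0073). The groups of sqor.S and of atf4-iii were tight and widely separated, with the S values of atf4-iii within 5 units of each other.

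The keratin krt12.4 behaved differently at its copies. Krt12.4.S (Xl.2924.1.S1_at) read 57.2, 37.9 and 21.4 in R and 161, 240 and 162 in S, or 5.12-fold higher in S (adjusted p = 0.0128), while krt12.4.L (Xl.21983.1.S1_at) read 678, 737 and 561 in R and 559, 586 and 603 in S (adjusted p = 0.864). The .S probeset separated the groups and the .L probeset did not, and the difference between them was not tested. Ptp4a1.S, a phosphatase of the regenerating liver family, read 2.75, 6.16 and 4.21 in R and 17.1, 25.7 and 17.5 in S at 1 probeset (Xl.17950.2.A1_at, log2 difference -2.25, adjusted p = 0.0109), and 11.9, 10.2 and 15.5 in R against 9.53, 11.2 and 12.1 in S at another. Ptp4a1.L overlapped too, at 14.7, 19.9 and 8.46 in R and 19.7, 24.9 and 21.4 in S (adjusted p = 0.303). Such disagreement within a gene limits what its fold change stands for. Ccnl2.L, a cyclin linked to splicing, read 4.31, 6.098 and 4.42 in R and 11.8, 26.2 and 19.1 in S (-1.89, adjusted p = 0.0398), and its second probeset gave -1.78 (adjusted p = 0.094). B3gnt3.2.L, a glycosyltransferase, read 7.34, 9.51 and 4.08 in R and 24.4, 24.4 and 21.2 in S (-1.82, adjusted p = 0.0459).

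Nfkbia.L, the inhibitor that holds NF-κB in the cytoplasm, read 54.1, 51.6 and 41.8 in R and 94.0, 112 and 104 in S (log2 difference -1.08, adjusted p = 0.0382), and nfkbia.S read 20.8, 23.6 and 18.2 in R and 31.0, 26.3 and 23.8 in S without passing. Nfkbia.L was the 1 lower gene among 32 leukocyte and antigen presentation genes, of which 0 were higher, 8 lay wholly below S and the median was -0.24, beside 0.725% lower and 11.1% wholly below S over all genes. Among genes of the ionocytes and secretory cells of tadpole epidermis, 2 of 21 were lower, beside 0.725% of all genes. These were the proton pump subunit atp6v0d2.L (39.1, 52.9 and 58.7 in R and 143, 107 and 111 in S, adjusted p = 0.0219) and the carbonic anhydrase ca2.S, at 0.974 to 1.58 in R and 2.83 to 6.13 in S (adjusted p = 0.0311). The tight junction protein cldn6.1.S read 10.97, 6.17 and 10.97 in R and 20.0, 25.3 and 21.0 in S (adjusted p = 0.0408). The median of the 21 epidermis cell type genes was -0.05, with 4 wholly below S and 3 wholly above. It was -0.44 for the 4 at 16 or more, of which 2 lay wholly below S, beside 15.9% of all probesets at that level. The summed intensity of the 21 genes was 184 to 238 in R and 262 to 354 in S, without overlap. Atp6v0d2.L alone made up 39.1 to 58.7 of the R sums and 107 to 143 of the S sums.

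Some of the widest gaps belonged to probesets without a gene symbol, 20 of the 49 lower ones at 16 or more. Xl.21515.1.A1_at read 4.31, 1.99 and 1.06 in R and 69.4, 90.5 and 85.2 in S, and Xl.9590.1.A1_x_at read 3.82, 1.55 and 1.495 in R and 52.3, 57.1 and 54.1 in S. The lowest R values are at or near the background level, so no difference is given. Both are named here after their values were seen.

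Below an intensity of 16 in both groups, 50 probesets were lower and 41 higher. Ch25h.L (Xl.18444.1.A1_at), the cholesterol 25-hydroxylase, read 10.6, 13.7 and 11.96 in S and 0.783, 0.960 and 0.978 in R, below the lowest 5th percentile of any cornea array (0.984), so no fold is given. The membrane protein emp1.L (Xl.25080.1.A1_at) was likewise under that level in R, at 0.632 to 0.858, and read 2.62, 7.55 and 3.03 in S. A second emp1.L probeset overlapped, at 1.77, 2.86 and 1.35 in R and 2.63, 3.74 and 3.62 in S (adjusted p = 0.288). The serotonin-gated channel subunit htr3a.L read 2.19, 2.58 and 4.34 in R and 13.2, 14.4 and 14.4 in S (log2 difference -2.27, adjusted p = 0.0066). LOC100036845 (1.05, 0.944 and 0.814 in R, 3.37, 12.02 and 7.42 in S) and LOC397829 (1.08, 2.56 and 2.35 in R, 12.2, 15.8 and 11.5 in S) completed the 5 genes of this level with the largest differences. 2 cell division genes of 77 measured were lower and 0 higher, beside 0.725% and 0.494% of all genes: anln.L, a scaffold of the cytokinetic ring (1.87, 2.87 and 1.49 in R, 9.41, 9.95 and 9.28 in S, adjusted p = 0.0034), and the kinetochore protein nuf2.L (5.78, 3.92 and 5.05 in R, 12.2, 12.9 and 9.29 in S, adjusted p = 0.0284). The proliferation marker mki67.S read 2.36 to 2.77 in R and 3.11 to 4.75 in S (adjusted p = 0.242). Of the 77 genes, 12 lay wholly below S and 5 wholly above, beside 11.1% and 11.5% of all genes. Their median was -0.02, and -0.24 for the 15 genes at 16 or more. A second anln.L probeset read 1.51 to 3.69 in R and 3.16 to 5.28 in S without passing (adjusted p = 0.405). The small GTPase rraga.S (adjusted p = 0.0136) and the adaptor lamtor2.S (adjusted p = 0.0099), which act together at the lysosome surface, read 1.84 to 3.77 and 1.03 to 1.71 in R and 9.06 to 16.2 and 3.78 to 5.90 in S, while another rraga.S probeset read 10.3 to 11.9 in R and 12.6 to 13.2 in S (adjusted p = 0.611).

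**Figure D3:**
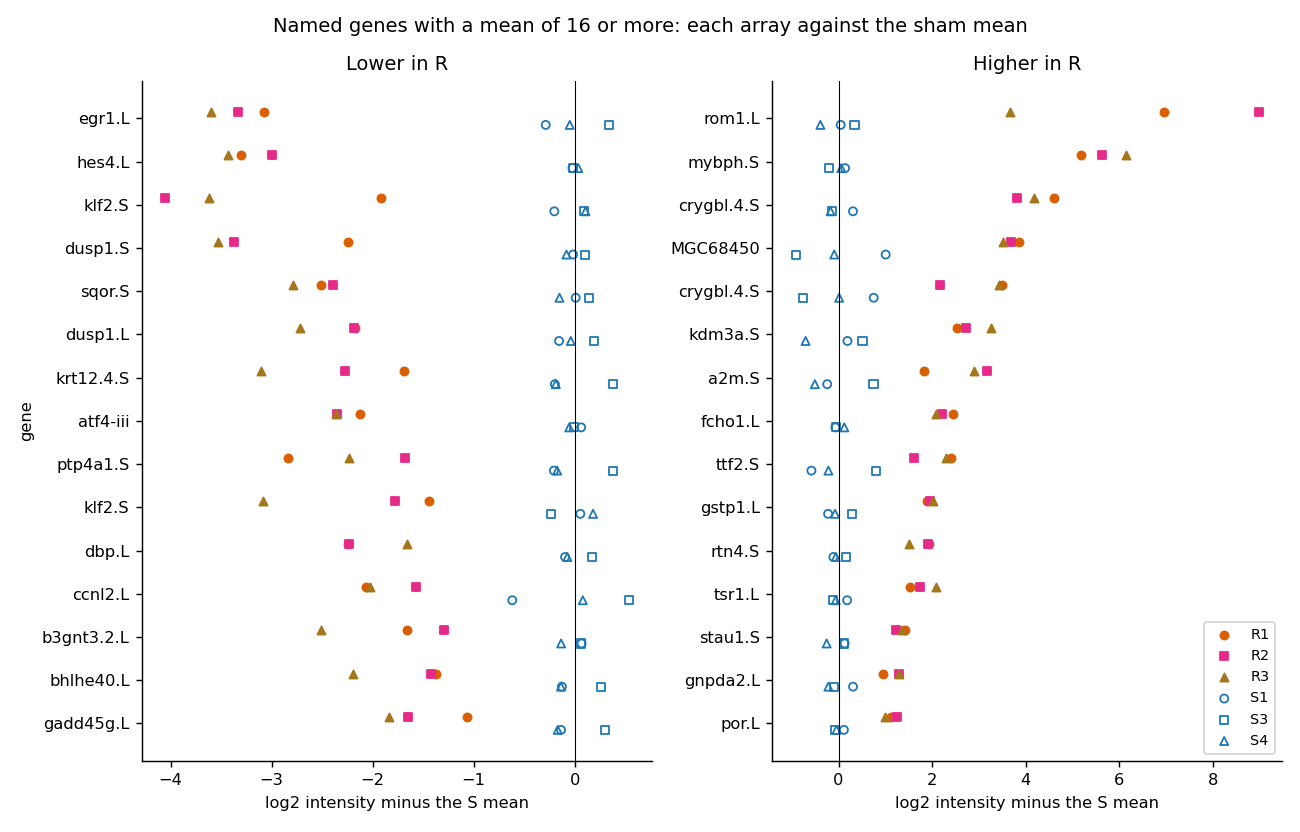
For the 15 lower (left) and 15 higher (right) named probesets at 16 or more, the x axis gives the log2 intensity of each array minus the mean of the S arrays, with filled symbols for R1, R2 and R3 and open blue symbols for S1, S3 and S4. No row has overlapping groups; rom1.L spreads over the widest range among the R arrays, from 7.16 in R3 to 288 in R2.

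The genes higher in R at 16 or more were of several kinds. Mybph.S (Xl.6142.1.S1_at), a myosin binding protein of muscle, read 47.4, 64.4 and 91.6 in R and 1.43, 1.13 and 1.35 in S (adjusted p = 0.000242). The S values were just above the background level, so no fold is given, and mybph.S stood at 6.001 in lens. The study's own quantitative PCR went the other way for this gene, with Mybph lower in R than in S. For other genes named further on (Tcf7, Tcf4, Gnai2, Fzd7, Mmp-11, Mmp14 and Taf1b) that PCR was higher in R than in S. Of 34 skeletal muscle genes, mybph.S and the troponin tnnt3.S (4.67, 3.999 and 4.84 in R, 2.44, 2.22 and 2.28 in S, adjusted p = 0.0202) were higher, 0 were lower, 7 lay wholly above S and the median log2 difference was 0.18, beside 0.494% higher and 11.5% wholly above S over all genes. The summed intensity of the 34 genes, mybph.S included, was 308 to 346 in R and 221 to 264 in S. Mybph.S alone made up 47.4 to 91.6 of the R sums and 1.13 to 1.43 of the S sums. The part of muscle tissue in the pools was not tested.

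Gstp1.L (Xl.5475.1.S1_at), a glutathione transferase of the antioxidant defence, was at 155, 163 and 171 in R and 35.97, 51.6 and 39.9 in S (log2 difference 1.96 ± 0.22, adjusted p = 0.0038). Its R values lay within a narrow range, and every one was more than 3 times the highest S value. Por.L, the reductase that passes electrons to cytochrome P450 and haem oxygenase, read 69.3, 75.5 and 62.7 in R and 34.4, 30.2 and 30.8 in S (1.12, adjusted p = 0.0239). The haem transporter slc48a1.L (43.8, 44.1 and 64.5 in R, 22.7, 28.3 and 20.9 in S, adjusted p = 0.0441), the haem oxygenase hmox2.S (16.3, 13.98 and 16.4 in R, 8.48, 9.55 and 8.69 in S, adjusted p = 0.0446) and 2 probesets of the haem binding protein hebp2.S (52.2 to 72.7 and 64.1 to 87.3 in R, 28.4 to 33.3 and 33.3 to 37.7 in S, adjusted p of 0.0336 and 0.0392) were also higher. The remaining hebp2.S probesets did not pass, with log2 differences of -0.05, 0.57 and 0.92, nor did a second por.L probeset at 2.95 to 7.96 in R and 3.16 to 3.21 in S. A list of 19 haem and iron genes, drawn up after these calls were seen, held 3 higher and 0 lower, beside 0.494% and 0.725% of all genes. Its median was 0.14, and it lost every call when S1, S3 or S4 was left out. Pgam1.L of glycolysis (45.9, 52.8 and 60.9 in R, 26.5, 30.1 and 27.0 in S) and rpia.L of the pentose phosphate pathway (19.5, 16.8 and 17.3 in R, 10.8, 9.97 and 11.1 in S) were close to the threshold, with adjusted p of 0.0326 and 0.0492, and pgam1.S overlapped, at 117, 134 and 83.3 in R and 96.4, 118 and 94.9 in S.

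Rtn4.S (Xl.24743.1.A1_at), a reticulon of the endoplasmic reticulum, read 44.0, 43.6 and 32.8 in R and 10.7, 13.0 and 11.1 in S (log2 difference 1.78, adjusted p = 0.0034). Its homoeologue rtn4.L read 616, 478 and 515 in R and 429, 570 and 419 in S, with overlap between the groups. Fcho1.L, which helps start clathrin coated pits, read 19.8, 16.8 and 15.5 in R and 3.47, 3.50 and 3.97 in S (2.25, adjusted p = 0.004). The enzyme gnpda2.L of hexosamine breakdown (20.5, 26.05 and 26.1 in R, 13.2, 9.97 and 9.16 in S, adjusted p = 0.0219) and the RNA binding protein stau1.S (19.5, 17.1 and 18.6 in R, 8.00, 7.96 and 6.13 in S, adjusted p = 0.0091) were higher too, while both stau1.L probesets gave log2 differences of 0.29 and 0.10 without passing. The protease inhibitor a2m.S (14.5, 36.8 and 30.2 in R, 3.45, 6.85 and 2.87 in S), the ATPase ttf2.S (23.3, 13.5 and 21.8 in R, 2.95, 7.65 and 3.79 in S), the histone demethylase kdm3a.S (19.9, 23.0 and 33.1 in R, 3.95, 4.94 and 2.12 in S) and MGC68450 (25.5, 22.7 and 20.2 in R, 3.55, 0.933 and 1.65 in S) completed this group together with the lens and photoreceptor genes described further on. A second kdm3a.S probeset read 8.76, 7.86 and 2.23 in R and 8.47, 11.1 and 8.85 in S, and kdm3a.L gave a log2 difference of 0.07.

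Several factors of ribosome assembly were higher in R. Tsr1.L, an assembly factor of the small subunit, read 13.9, 16.2 and 20.4 in R and 5.5, 4.44 and 4.64 in S (log2 difference 1.78, adjusted p = 0.0047). A second tsr1.L probeset read 6.02, 2.48 and 3.82 in R and 2.45, 2.02 and 2.07 in S without passing (adjusted p = 0.237). Below 16, abt1.L (7.68, 7.98 and 9.82 in R, 3.19, 2.59 and 2.70 in S, adjusted p = 0.0042), utp14a.L (12.02, 11.5 and 14.9 in R, 4.59, 4.45 and 4.28 in S, adjusted p = 0.0081) and fbl.S, the nucleolar methyltransferase fibrillarin (9.87, 9.80 and 6.91 in R, 2.71, 2.37 and 3.00 in S, adjusted p = 0.0042), had the same pattern, and noc4l.L was at the threshold (adjusted p = 0.0496). The other fbl.S probesets did not pass, at 13.2, 19.3 and 18.3 in R against 10.8, 19.6 and 13.1 in S (adjusted p = 0.749) and at 4.202 to 6.22 in R against 2.97 to 3.18 in S (adjusted p = 0.15). A list of 86 ribosome assembly genes, drawn up after these calls were seen, held 4 higher and 0 lower by 1 probeset per gene, beside 0.494% and 0.725% of all genes. 15 of the 86 lay wholly above S and 3 wholly below, beside 11.5% and 11.1% of all genes, with a median of 0.21. The 60 ribosomal proteins themselves had a median of -0.01 and 0 calls in the limma test (1 higher and 0 lower at an unadjusted p under 0.05). Without R2 and S4 the assembly list kept 0 calls and its median was 0.10.

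A probeset without a symbol in the annotation, Xl.9491.1.S1_at, which the study's own annotation gives as an MHC class II antigen alpha chain, read 26.9, 27.8 and 31.2 in R (28.6 ± 2.25, SD, n = 3) and 0.699, 0.984 and 0.643 in S (adjusted p = 3.51e-05). It read 1.12 to 1.76 in lens, and its S values are at or under the background level, so no fold is given. Other antigen presentation genes had other values: the class II invariant chain cd74.L read 28.0, 45.5 and 68.7 in R and 79.2, 67.2 and 62.5 in S, b2m.S of class I molecules read 38.7, 31.5 and 53.4 in R and 102, 73.8 and 73.8 in S, and the immunoproteasome subunit psmb8.L read 17.6, 18.3 and 21.7 in R and 56.2, 25.5 and 35.0 in S. None of these 3 passed the test (adjusted p of 0.374, 0.213 and 0.214). Xl.9491.1.S1_at was singled out after its values were seen.

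Markers of tissues next to the cornea differed between the R arrays. Of 17 photoreceptor genes 1 was higher in R (rom1.L, adjusted p = 0.0267) and 0 lower, beside 0.494% higher over all genes. 7 of the 17 lay wholly above S, beside 11.5% of all genes, and the median log2 difference was 1.76. The photoreceptor median, relative to the S mean, was 1.19, 3.62 and 0.17 on R1, R2 and R3, and rom1.L, a disc membrane protein of rods, read 69.7, 288 and 7.16 in R and 0.43 to 0.713 in S. The median over 7 crystallin genes, the proteins that fill lens cells, had another order, at 2.64, 0.22 and 1.56. Crygbl.4.S, a gamma crystallin, was higher at both its probesets, which read 22.4, 12.9 and 16.6, and 34.3, 13.7 and 32.5, in R, and 0.817 to 1.14, and 1.78 to 5.11, in S (adjusted p = 5.7e-05 and 0.0119). Without R2 the photoreceptor median fell to 0.71, with rom1.L as the 1 call. The other copy, rom1.S, read 8.54, 35.1 and 2.02 in R and 0.803 to 1.70 in S without passing (adjusted p = 0.218). Photoreceptor signal was also present in dissected lens, where rom1.L read 52.7, 84.2 and 24.1 on L1, L2 and L3. The 17 genes summed to 286, 402 and 173 there, against 228, 765 and 141 in R.

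Neuron and nerve genes lay higher on all 3 R arrays, without a call at the brightest probeset of each gene. Of 36 measured in that way, 0 passed in the limma test. At an unadjusted p under 0.05, 11 were higher and 0 lower, beside 7.65% and 7.79% of all genes. The R values lay wholly above S for 15 and wholly below for 0, beside 11.5% and 11.1% of all genes. Over all 60 probesets of the list 1 was higher (rtn4.S, described above) and 0 were lower, beside 0.485% and 0.64% of all probesets. Relative to the S mean, the median of the 36 genes was 0.32, 0.48 and 0.32 on R1, R2 and R3. The neuronal tubulin tubb3.L read 22.8, 66.5 and 42.6 in R and 3.40, 13.8 and 11.4 in S (adjusted p = 0.0899), tubb2b.S read 101, 201 and 124 in R and 64.2, 63.1 and 59.0 in S (adjusted p = 0.0723), and the adhesion molecule ncam1.S read 8.29, 5.32 and 9.50 in R and 1.75, 3.96 and 2.91 in S (adjusted p = 0.0801). Without R2 the median was 0.33 and 2 genes passed. The probesets of the myelin gene mbp.S went opposite ways without passing, at 2.51, 15.5 and 8.64 in R and 7.25, 28.2 and 14.5 in S for one and 3.00, 40.3 and 3.48 in R and 2.43, 8.07 and 3.55 in S for the other. Gap43.S, found in growing axons, read 16.5 to 23.6 in R and 14.3 to 17.8 in S. The summed intensity of the list was 1014 to 1121 in R and 716 to 925 in S.

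**Figure D4:**
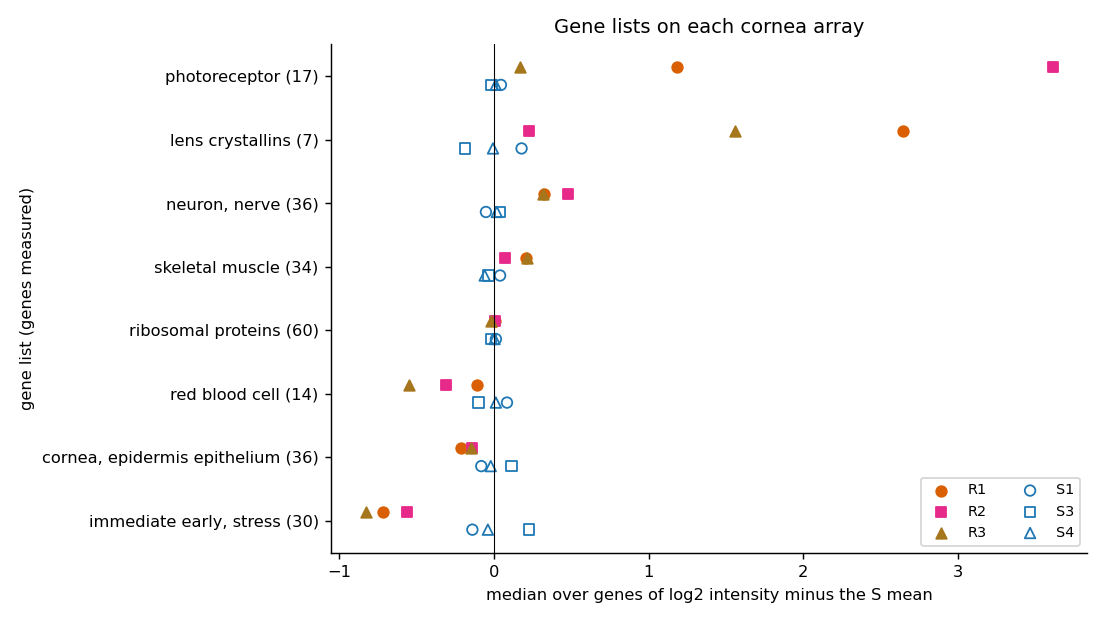
Each row is a gene list with the number of genes measured, and the x axis gives the median over its genes of the log2 intensity minus the S mean, for R1, R2 and R3 (filled) and S1, S3 and S4 (open blue). The immediate early list lies at -0.56 to -0.83 on the R arrays and the neuron list at 0.32 to 0.48, while the photoreceptor list reaches 3.62 in R2 and 0.17 in R3.

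The epithelium and the stroma, which make up the cornea itself, held few calls, although more epithelial genes lay wholly below S than above. Of 36 epithelial genes, each by its brightest probeset, 0 were called in limma (1 higher and 4 lower at an unadjusted p under 0.05). 8 of them lay wholly below S and 1 wholly above, beside 11.1% and 11.5% of all genes, with a median of -0.18. Over all 63 probesets of these genes 2 were lower (krt12.4.S, described above, and krt70.L, at 0.953 to 1.41 in R and 2.44 to 5.36 in S) and 0 were higher, beside 0.64% lower over all probesets. The other krt70 probesets did not pass. Those whose higher group mean was 501, 150 and 109 gave log2 differences of -0.04, -0.32 and -0.25, and one at 2.86 gave 1.05. 17 of the 63 lay wholly below S and 4 wholly above, beside 9.82% and 12.3% of all probesets. The desmosome protein dsp.L (41.8, 52.9 and 32.3 in R, 56.1, 81.0 and 63.8 in S), the cross-linked envelope protein evpl.L (33.4 to 42.8 in R, 51.9 to 73.4 in S) and the epithelial regulator grhl3.L (18.7 to 19.0 in R, 26.9 to 34.3 in S) lay below S without passing (adjusted p of 0.246, 0.277 and 0.396). The basal cell factor tp63.L overlapped, at 58.6, 89.7 and 42.0 in R and 82.4, 111 and 93.2 in S. Pax6.L, needed for both cornea and lens, was the 1 gene wholly above S, at 61.8, 104 and 121 in R and 49.0, 59.2 and 51.5 in S (adjusted p = 0.182). Of 34 stroma and matrix genes 0 were called (3 higher and 3 lower at an unadjusted p under 0.05) and the median was 0.15. The corneal matrix protein tgfbi.L read 117, 159 and 118 in R and 33.7, 79.7 and 61.6 in S (adjusted p = 0.101), and the proteoglycan lum.L read 75.2, 122 and 77.3 in R and 109, 144 and 146 in S.

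Among 18 metalloproteinases and inhibitors, mmp11.L was higher and 0 were lower, beside 0.494% and 0.725% of all genes. Mmp11.L read 3.98, 3.29 and 3.73 in R and 1.60, 1.55 and 1.42 in S (log2 difference 1.26, adjusted p = 0.0089). Its S values lay below the median intensity of their arrays, close to the background level. Mmp14.L, a membrane-bound metalloproteinase, was at 231, 244 and 203 in R and 63.1, 129 and 101 in S, and missed the threshold (log2 difference 1.26, adjusted p = 0.0509). The gelatinase mmp2.S read 2.33 to 3.89 in R and 1.60 to 3.02 in S.

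Of the Wnt, BMP and FGF lists, only the Wnt list held calls. Among 65 Wnt pathway components 2 were higher and 0 lower, beside 0.494% and 0.725% of all genes. At an unadjusted p under 0.05, 13 were higher and 2 lower, beside 7.65% and 7.79% of all genes. The R values lay wholly above S for 15 and wholly below for 5, beside 11.5% and 11.1% of all genes. The median was 0.23, or -0.12 for the 15 components at 16 or more, of which 0 were called. Over all 104 probesets of the list 3 were higher, the third being 1 of 5 probesets of the receptor fzd7.L (2.86 to 4.18 in R, 0.895 to 1.62 in S, adjusted p = 0.0325). Tcf7.S, a transcription factor at the end of the pathway, read 8.31, 7.18 and 20.8 in R and 1.54, 1.80 and 1.32 in S (log2 difference 2.80, adjusted p = 0.0103), and dvl2.L, which relays the signal from the receptor, read 9.65, 11.5 and 10.5 in R and 3.98, 4.16 and 5.33 in S (1.24, adjusted p = 0.0179). The tcf7.S values in S lay below the median intensity of their arrays, close to the background level. The other dvl2.L probesets gave log2 differences of 0.63 and -0.11 and did not pass. Of 47 BMP and TGF-beta components and 32 FGF and receptor tyrosine kinase genes, 0 were called in limma, with 2 higher and 2 lower, and 3 higher and 0 lower, at an unadjusted p under 0.05. The BMP target id3.S read 3.95, 3.26 and 3.43 in R and 4.75, 16.04 and 11.6 in S (adjusted p = 0.121), and fgf8.L read 2.36 to 2.74 in R and 1.43 to 1.70 in S (adjusted p = 0.0899). Other higher genes under 16 were the lipid kinase pik3c2a.L (9.19, 9.85 and 8.86 in R, 1.42, 1.54 and 1.41 in S, adjusted p = 0.000506), the G protein subunit gnai2.S (10.05, 12.2 and 14.2 in R, 1.93, 1.74 and 2.14 in S, adjusted p = 0.0047), LOC398692 (13.3, 14.5 and 15.2 in R, 1.89, 3.10 and 2.58 in S, adjusted p = 0.0066) and the E protein tcf4.S (25.0, 10.3 and 10.1 in R, 2.45, 4.49 and 3.62 in S, adjusted p = 0.0441). The other tcf4.S probesets gave log2 differences of 1.02 to 1.75 and did not pass.

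Other probesets of a called gene, including the homoeologous copy, were compared with the call. For the 59 lower calls with a symbol, 27 genes had 43 other probesets. Of these, 6 were lower calls themselves, being both members of the called pairs of dusp1, hes4 and klf2. Of the 37 that were not called, 25 differed in the same direction, and of the 16 of these at 16 or more, 13 did, with a median log2 difference of -0.46. For the 45 higher calls, 4 of 41 other probesets were higher calls themselves, being both members of the called pairs of hebp2 and crygbl.4. Of the 37 that were not called, 27 differed in the same direction, and of the 12 at 16 or more, 11 did, with a median of 0.27. Genes such as dusp1, hes4 and klf2 were thus lower at several probesets, whereas for krt12.4, ptp4a1, sqor, rtn4, stau1 and kdm3a the other probesets did not share the call.

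Some signal was high on 1 R array alone. At 16 or more, 11 probesets were over 8 times higher in R1 than in both other R arrays, 12 in R2 and 16 in R3, against 0 in S1, 0 in S3 and 1 in S4. The R2 probesets included the rod genes sag.L (1.57, 31.7 and 0.692 in R), gnat1.L (3.48, 42.2 and 1.08) and prph2.S (7.25, 70.4 and 2.87) and the cone gene arr3.L (3.96, 36.6 and 2.31). R3 had taf1b.L, of the RNA polymerase I machinery, at 495 against 12.8 and 13.8 in R1 and R2 and 15.8 to 18.8 in S. R1 had rad1.L, a DNA damage checkpoint gene, at 73.3 against 2.04 and 2.63, and rbm12b.2.L at 39.2 against 1.097 and 1.23. None of these genes passed the test for R against S.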

How the data were processed

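Amplified and labelled RNA of pooled corneas and lenses was hybridised to *Xenopus laevis* GeneChips, 1 array per pool. Per the labels and the study's methods, the authors normalised the 9 arrays together with RMA in GenePattern, and the deposited values are linear intensities (0.309 to 2230). The probesets were tied to genes by the platform annotation, with 9296 probesets having 1 symbol, 195 several and 5985 none. Here log2 intensities of L, R and S were fitted in 1 model in limma 3.58.1 (R 4.3.3, 6 residual degrees of freedom) and R minus S was tested, two-sided, with Benjamini-Hochberg adjustment over 15476 probesets after removal of 135 controls. The script was tested on simulated data. Differences carry standard errors and levels carry SDs (n = 3).

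Genes were named by a rule: the 15 largest differences in each direction at 16 or more and the 5 below 16 among non-overlapping calls with 1 symbol, the leading members of each of 27 lists, other probesets of those genes, and signal confined to 1 R array. Members and lists were chosen with earlier results of these data known, and 2 lists were added later. Any other gene named in the text was chosen after its values were seen. Lists carry counts and medians only, with the brightest probeset per gene. Alternatives were 21 refits (offsets, normalisation, filters, arrays left out, weights and a replicate block).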

Additional observations from a re-analysis of the deposited data

How the results depend on the processing

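The number of calls depended on the fit. No called probeset changed sign in any of the 21 alternatives, but most of them could not have changed one. The R and S values of a called probeset do not overlap, so offsets, filters, weights and left-out arrays cannot reverse its sign. Leaving out 1 array at a time gave 22 to 123 higher and 38 to 181 lower probesets in all, 10 to 39 higher and 17 to 65 lower at 16 or more, and 1 to 5 lower immediate early genes. An offset of 1 gave 77 lower at 16 or more, and an offset of 8 gave 128 higher and 206 lower in all, 86 and 147 at 16 or more, and 9 immediate early genes. Quantile normalisation of the 6 cornea arrays gave 22 and 50 in all, 11 and 27 at 16 or more, and 3 immediate early genes, and a fit to those 6 arrays alone, with fewer residual degrees of freedom, gave 37 and 43, 17 and 22, and 3. Array weights gave 372 and 266, 158 and 123, and 12, and a trended, robust fit gave 57 higher at 16 or more, as against 54 with low probesets filtered out. Without R2 and S4 the numbers were 13 and 36, 5 and 18, and 1. Setting the level at 8 gave 59 higher and 81 lower, and at 32 it gave 16 and 31. The share of lower calls, 56.9% in the reported fit, was 41.7% with array weights, 46.3% without R1, 43.9% without R3, 45.6% without S3 and 73.5% without R2 and S4. The cause of these shifts was not tested. R and S share only the replicate numbers 1 and 3, and same-numbered arrays did not deviate together (correlations of 0.0568 and -0.0991). With the replicate block, 5 probesets were higher and 8 lower, 4 and 4 at 16 or more, and 0 immediate early genes were lower. Of 78 probesets followed through the alternatives, 68 were called in the reported fit. With low probesets filtered out, 33 of the 78 remained. Over all alternatives, 1141 of 1593 refitted values kept their side of the threshold, 417 lost the call, 35 gained one and 0 reversed. Without S4, 42 of the 68 lost the call. In 19 alternatives other than the block and the filter, 12 of the 49 lower and 4 of the 34 higher calls at 16 or more always passed. Values near 1 lie at background, and differences that reach it are understated.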
